A study of Mus musculus with 48 samples.

Results

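Tibialis anterior muscle taken at midnight was compared between mice with KPC pancreatic tumors and control mice, in 2 genotypes together. The members were all libraries labelled for the 00:00 collection, which is circadian time 18 (CT18), and they are 8 of the 48 libraries of the series. They comprise 4 KPC libraries and 4 control libraries, with 2 mice in each of the 4 groups formed by genotype and tumor. The other 40 libraries cover 5 further circadian times and were used only to ask whether an effect was particular to CT18.

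KPC mice had received KPC cells, a mouse pancreatic cancer line, injected into the pancreas, and control mice had received sterile saline by the same route. WT mice are described as C57BL/6J in the sample labels and as floxed *Foxp1* mice without Cre in the series record, so their alleles are uncertain. FoxP1SkmKO mice carried the floxed *Foxp1* allele and Cre recombinase under the ACTA1 (skeletal actin) promoter, which drives expression in muscle fibers, so that other cells of the muscle keep the gene. All mice were male, with a labelled age of 39 to 55 weeks, and had been moved from a light and dark cycle to constant darkness before collection. Each library is polyadenylated RNA of 1 mouse, and the p-values below measure the spread between these mice only.

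Tumors outside muscle act on it through circulating cytokines, glucocorticoids, and reduced feeding, and the skeletal muscle response of tumor-bearing animals is known for wasting of fibers, with atrophy ubiquitin ligases and autophagy genes among its best known transcripts. Cytokine receptors of the type I family have no enzyme activity of their own. They hold Janus kinases at their inner tails, and these kinases phosphorylate STAT transcription factors that enter the nucleus. The tibialis anterior of the mouse consists almost entirely of fast fibers, and slow fibers are identified by slow myosin and by the slow isoforms of troponin and of the calcium pump.

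Counts on genes ranged from 14480867 to 20787784 per CT18 library. Levels below are CPM, the reads of a gene relative to all reads of its library, scaled by the TMM method of edgeR, and a log2 fold change is KPC minus control with genotype as a covariate. A gene was called at a Benjamini-Hochberg adjusted p under 0.05 in edgeR's quasi-likelihood test over 14689 genes. The 11 skeletal muscle marker genes summed to between 151200 and 179600 CPM in the 8 libraries. The 84 liver genes, of which 29 were tested, summed to 1080 CPM in FoxP1SkmKO KPC replicate 2 against 22.5 to 72.1 CPM in the other 7 libraries. Interferon-induced genes stood apart in another library, with a sum of 716.6 CPM over 31 genes in FoxP1SkmKO control replicate 2 against 175.3 to 196.5 CPM in the other 3 control libraries and 247.1 to 396.5 CPM in the KPC libraries. Replicates of a group differed by more than sampling noise in every group, with a chi-square per degree of freedom of 10.7 to 17.4, so no library was counted as a copy of another.

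*Foxp1* itself, a forkhead transcription factor at chr6:98902299-99499682 (mm39, as are all gene positions below), was checked first. It measured 9.31 and 9.95 CPM in WT control, 10.4 and 10.1 CPM in WT KPC, 8.73 and 8.63 CPM in FoxP1SkmKO control, and 6.39 and 8.79 CPM in FoxP1SkmKO KPC mice. The 4 FoxP1SkmKO libraries were all below the 4 WT libraries, by a small margin. Counts over the whole gene do not separate the floxed exons and include cells other than fibers, so these values do not check the deletion. Its KPC effect was a log2 fold change of -0.04 ± 0.12 (SE, adjusted p = 0.984).

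Over both genotypes, 16 of the 14689 genes tested were called, or 0.109%, with 10 higher (0.0681%) and 6 lower (0.0408%) in KPC mice. The genes that were lower were those of slow muscle (*Myh7*, *Atp2a2*), 2 imprinted long noncoding RNAs (*Meg3*, *Rian*), *Myadm*, and *Itpkb*. Among the genes that were higher, 5 encode cytokine receptor chains or a kinase that binds them (*Csf2rb*, *Csf2rb2*, *Osmr*, *Il4ra*, *Jak3*). In all 16 genes the 4 KPC and the 4 control libraries did not overlap in CPM, from which it follows that the WT and FoxP1SkmKO effects had the same sign. Without any test, 581 genes did not overlap between the groups, or 3.96% of those tested, 300 with all KPC libraries higher (2.04%) and 281 with all KPC libraries lower (1.91%). An unadjusted p under 0.05 was reached by 562 genes that were higher (3.83%) and 570 that were lower (3.88%), and the median log2 fold change of all genes tested was 0.000911. DESeq2 on the same libraries called 84 genes, 42 in each direction (0.286% and 0.286%), and these included all 16.

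The count depended on single libraries. Without FoxP1SkmKO KPC replicate 2, the library with liver transcripts, 22 genes were called (0.15%), and 14 of the 16 were among them, all but *Plvap* (0.0763) and *Actn1* (0.0823). Among the 8 others were *Actc1*, *Csnk2a1-ps3*, *Nr1d1*, *Prune2*, *Rflnb*, *Serpinh1*, and *Zcchc7*. Of these *Actc1*, cardiac alpha-actin, measured 346 to 743 CPM in controls and 70.3 to 292 CPM in KPC mice, with that library lowest. The count was 10 without WT control replicate 1, 8 without WT control replicate 2, 6 without FoxP1SkmKO control replicate 1, and 48 without FoxP1SkmKO KPC replicate 1. In each of the 8 omissions, 6 of the 16 genes were called, and these were *Myh7*, *Atp2a2*, *Meg3*, *Rian*, *Csf2rb2*, and *Rps27rt*.

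**Figure D1:**
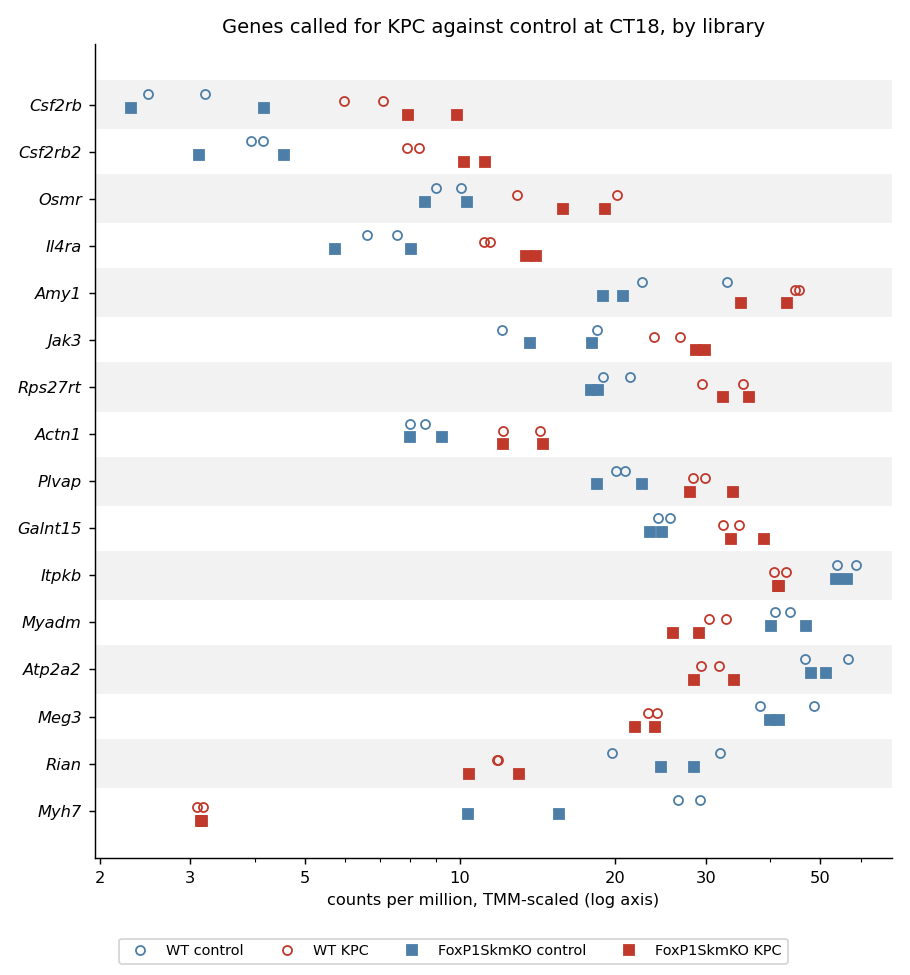
CPM (TMM-scaled, log axis) of the 16 called genes in each of the 8 CT18 libraries, 1 point per mouse, with open circles for WT, filled squares for FoxP1SkmKO, blue for control and red for KPC mice. Blue and red points do not overlap within any of the 16 rows, and *Myh7* has the widest separation, with KPC libraries at 3.09 to 3.17 CPM.

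*Myh7*, which encodes the slow (type I) myosin heavy chain and lies at chr14:55208141-55232083, had the largest change of the 16. It measured 26.5 and 29.3 CPM in WT control mice and 10.4 and 15.6 CPM in FoxP1SkmKO control mice. In KPC mice it measured 3.09 and 3.17 CPM (WT) and 3.16 and 3.14 CPM (FoxP1SkmKO). The 4 KPC mice were thus nearly equal (3.14 ± 0.0354 CPM, SD, n = 4), whereas the controls were spread widely (20.4 ± 8.93 CPM, SD, n = 4), with the WT controls highest. The log2 fold change was -2.64 ± 0.21 (SE, adjusted p = 1.36e-04), or 6.22-fold lower. In single genotypes it was -3.15 ± 0.19 in WT (adjusted p = 5.24e-06) and -2.04 ± 0.20 in FoxP1SkmKO mice (adjusted p = 2.93e-04), and the difference between them was not called (adjusted p = 0.258). In bulk muscle, fewer slow fibers in the sampled piece and less *Myh7* RNA per fiber cannot be told apart.

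*Atp2a2* encodes the slow and cardiac isoform of the calcium pump of the sarcoplasmic reticulum and lies at chr5:122591576-122640288. Its CPM was 46.7 and 56.6 in WT control, 31.8 and 29.4 in WT KPC, 48.1 and 51.3 in FoxP1SkmKO control, and 28.5 and 34.1 in FoxP1SkmKO KPC mice. All KPC libraries were below all controls, and the genotypes were alike in level. Its log2 fold change was -0.71 ± 0.09 (SE, adjusted p = 0.00457).

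Of the 9 slow-fiber contractile genes, all tested, these 2 were called, against 0.0408% of all genes called lower, and all 9 had a log2 fold change below 0, with a median of -1.05. The 4 KPC libraries lay below the 4 controls in 6 of the 9, against 1.91% of all genes, and DESeq2 called those 6, against 0.286% of all genes, which add the slow light chain *Myl2* and the slow troponins *Tnni1*, *Tnnt1*, and *Tnnc1*. *Myl2* measured 2.89 to 5.47 CPM in controls and 0.367 to 2.67 CPM in KPC mice (log2 fold change -1.95 ± 0.34, adjusted p = 0.0510). For *Tnni1* the log2 fold change was -1.20 ± 0.23 (adjusted p = 0.0764), whereas *Myh7b* was at -0.12. The list summed to 128.9 to 179.0 CPM in controls and 96.5 to 109.2 CPM in KPC mice. Among 13 fast-fiber contractile genes, edgeR called 0, 3 had an unadjusted p under 0.05, all higher, DESeq2 called 1 (*Actn3*, higher), and the median was 0.06. The fast myosins *Myh1* and *Myh2* had log2 fold changes of 0.22 and 0.10.

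*Meg3* and *Rian* are maternally expressed long noncoding RNAs of the imprinted *Dlk1-Dio3* region and lie near each other at chr12:109506879-109538165 and chr12:109570242-109628150. *Meg3* measured 38.3 and 48.6 CPM in WT control, 23.2 and 24.1 CPM in WT KPC, 39.9 and 41.7 CPM in FoxP1SkmKO control, and 23.9 and 21.9 CPM in FoxP1SkmKO KPC mice. The KPC libraries formed a narrow band below every control. The log2 fold change was -0.86 ± 0.09 (SE, adjusted p = 0.00144), and it was -0.88 in WT and -0.83 in FoxP1SkmKO mice. *Rian* measured 19.8 and 31.9 CPM in WT control, 11.8 and 11.8 CPM in WT KPC, 28.5 and 24.6 CPM in FoxP1SkmKO control, and 13 and 10.4 CPM in FoxP1SkmKO KPC mice. Its groups did not overlap either, and its log2 fold change was -1.16 ± 0.14 (SE, adjusted p = 0.00457). Both genes were called in every setting tried, with adjusted p-values of at most 0.0306. Another noncoding RNA of the region, *Mirg*, added after its values were seen, was near 1 CPM (0.826 to 1.79 CPM in controls and 0.320 to 0.808 CPM in KPC mice, log2 fold change -1.02 ± 0.39, adjusted p = 0.517), and the paternally expressed *Dlk1* was at 0.26 ± 0.41.

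These genes carry microRNAs within their annotated spans (GENCODE release M39, GRCm39), 2 microRNA genes in *Meg3*, 4 in *Rian*, and 1 in *Myh7*. The mature sequences of 4 of them (RefSeq) are shown to identify what is transcribed with the hosts, with the seed (bases 2 to 8) in capitals. No 2 of these 4 share a seed, and microRNA levels were not measured.
mmu-miR-770-5p (in *Meg3*): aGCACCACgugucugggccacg
mmu-miR-341-3p (in *Rian*): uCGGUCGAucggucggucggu
mmu-miR-370-3p (in *Rian*): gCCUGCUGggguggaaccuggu
mmu-miR-208b-3p (in *Myh7*): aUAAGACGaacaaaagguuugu

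RefSeq promoters (250 bases before to 50 after the gene start, GRCm38.p6) were matched for 13 of the 16 called genes and searched on both strands for 7 motifs. These were E-box CACGTG (in 7.15% of all 32851 promoters), D-box TTATGNAA or TTACGNAA (3.99%), metal response element TGCGCNC or TGCACNC (25.7%), the glucocorticoid response element (0.14%), STAT TTCNNNGAA (8.3%), forkhead GTAAACA (3.65%), and CRE TGACGTCA (1.79%). The *Meg3* promoter at chr12:109540746-109541045 (plus strand) held the CRE letters, shown in capitals, and another *Meg3* promoter in the table, at chr12:109545148-109545447, did not. The *Rian* promoter at chr12:109603695-109603994 (plus strand) held the STAT letters, and the forkhead letters were in no window of these genes. A match is a description of letters and not a binding site.
*Meg3* promoter: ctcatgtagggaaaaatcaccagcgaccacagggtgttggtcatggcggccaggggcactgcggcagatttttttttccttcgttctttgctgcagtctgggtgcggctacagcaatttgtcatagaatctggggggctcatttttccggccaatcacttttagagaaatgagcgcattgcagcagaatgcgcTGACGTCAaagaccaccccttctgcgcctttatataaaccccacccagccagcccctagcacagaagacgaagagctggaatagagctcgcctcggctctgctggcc
*Rian* promoter: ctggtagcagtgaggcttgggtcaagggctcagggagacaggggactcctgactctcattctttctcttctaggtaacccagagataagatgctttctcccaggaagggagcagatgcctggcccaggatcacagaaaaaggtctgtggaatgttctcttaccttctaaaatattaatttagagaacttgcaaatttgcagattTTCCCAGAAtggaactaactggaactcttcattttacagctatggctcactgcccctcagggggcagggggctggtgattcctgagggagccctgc

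Of the 10 genes that rose, 4 encode receptor chains for cytokines and 1 a receptor-bound kinase. *Csf2rb2* and *Csf2rb*, neighbors at chr15:78166707-78189921 and chr15:78209952-78238047, encode the interleukin 3 specific beta chain and the common beta chain shared by the receptors for interleukin 3, interleukin 5, and GM-CSF. The 2 genes are near-identical copies, so reads could be assigned to either, and their single values are uncertain. *Csf2rb2* measured 4.15 and 3.93 CPM in WT control, 8.32 and 7.91 CPM in WT KPC, 3.13 and 4.56 CPM in FoxP1SkmKO control, and 10.2 and 11.2 CPM in FoxP1SkmKO KPC mice. All KPC libraries were above all controls, with FoxP1SkmKO KPC mice highest. Its log2 fold change was 1.24 ± 0.16 (SE, adjusted p = 0.00552), or 2.36-fold. *Csf2rb* measured 2.30 to 4.18 CPM in controls and 5.97 to 9.87 CPM in KPC mice, again without overlap. Its log2 fold change was 1.33 ± 0.19 (adjusted p = 0.0199), and it was not called without WT control replicate 2 (0.0882), WT KPC replicate 2 (0.066), or FoxP1SkmKO control replicate 1 (0.0575), in a range of 0.0117 to 0.0882 over the 8 omissions.

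The *Csf2rb2* promoter at chr15:78305672-78305971 (minus strand, GRCm38.p6) also held the STAT letters, here in capitals, whereas the promoters of *Il4ra*, *Osmr*, and *Jak3* held none in this window.
*Csf2rb2* promoter: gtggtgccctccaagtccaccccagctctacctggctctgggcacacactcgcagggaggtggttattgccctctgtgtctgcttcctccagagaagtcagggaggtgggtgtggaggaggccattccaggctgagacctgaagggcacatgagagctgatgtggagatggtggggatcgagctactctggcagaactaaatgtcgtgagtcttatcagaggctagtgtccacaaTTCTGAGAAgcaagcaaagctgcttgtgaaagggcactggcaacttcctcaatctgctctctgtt

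*Il4ra*, the shared alpha chain of the receptors for interleukin 4 and interleukin 13 (chr7:125151292-125178646), measured 6.61 and 7.56 CPM in WT control, 11.5 and 11.1 CPM in WT KPC, 5.72 and 8.03 CPM in FoxP1SkmKO control, and 13.4 and 14.0 CPM in FoxP1SkmKO KPC mice. The lowest KPC library was above the highest control. The log2 fold change was 0.83 ± 0.13 (SE, adjusted p = 0.0340). *Osmr*, which pairs with gp130 to bind oncostatin M (chr15:6843058-6904450), measured 10.1 and 9.01 CPM in WT control, 20.2 and 12.9 CPM in WT KPC, 10.3 and 8.57 CPM in FoxP1SkmKO control, and 19.2 and 15.8 CPM in FoxP1SkmKO KPC mice. The controls were close together and the KPC mice more spread, without overlap. The log2 fold change was 0.84 ± 0.14 (SE, adjusted p = 0.0491), at the edge of the threshold.

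*Jak3*, the Janus kinase that binds the common gamma chain (chr8:72128940-72143219), measured 18.4 and 12.1 CPM in WT control, 26.8 and 23.8 CPM in WT KPC, 13.7 and 18.1 CPM in FoxP1SkmKO control, and 28.7 and 29.8 CPM in FoxP1SkmKO KPC mice. Here too the groups did not overlap, and the log2 fold change was 0.81 ± 0.13 (SE, adjusted p = 0.0345). Each of *Il4ra*, *Osmr*, and *Jak3* lost its call when certain single libraries were left out. *Il4ra* was lost without WT control replicate 1 (0.0750), WT control replicate 2 (0.0615), WT KPC replicate 1 (0.0865), WT KPC replicate 2 (0.0598), or FoxP1SkmKO control replicate 1 (0.0867), in a range of 0.0352 to 0.0867. *Jak3* was lost without WT control replicate 2 (0.0973), WT KPC replicate 1 (0.112), WT KPC replicate 2 (0.0598), or FoxP1SkmKO control replicate 1 (0.149), in a range of 0.00489 to 0.149. *Osmr* was lost without WT control replicate 1 (0.0806), WT control replicate 2 (0.149), WT KPC replicate 1 (0.145), FoxP1SkmKO control replicate 1 (0.149), FoxP1SkmKO control replicate 2 (0.0836), or FoxP1SkmKO KPC replicate 1 (0.0754), in a range of 0.0159 to 0.149. In these refits all 3 genes had a log2 fold change of at least 0.70.

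Of 22 genes of the interleukin 6 family and JAK-STAT3 signalling, 19 were tested, and *Osmr*, *Jak3*, and *Il4ra* were the 3 called, all higher, against 0.0681% of all genes. The ligands *Il6* and *Osm*, first on the list, were too low to be tested. The median of the list was 0.07, with 8 members higher and 2 lower at an unadjusted p under 0.05. The transcription factor *Stat3*, called by DESeq2 but not by edgeR, measured 48.6 to 62.7 CPM in controls and 60.7 to 72.5 CPM in KPC mice (log2 fold change 0.32 ± 0.07, adjusted p = 0.138). *Socs3*, which STAT3 induces and which inhibits the pathway, was at 0.90 ± 0.24 (adjusted p = 0.261). Over 14 tested receptor genes of the type I family and their kinases, 5 were called higher, against 0.0681% of all genes. The list was made after values were seen and the 5 are the genes described above, so this count is not separate evidence. The alpha chain *Csf2ra*, the partner of *Csf2rb* in the GM-CSF receptor, was at -0.02.

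The other called genes included *Plvap*, a protein of the diaphragms of endothelial pores (chr8:71950409-71964396), at 18.5 to 22.6 CPM in controls and 27.9 to 33.9 CPM in KPC mice, with a log2 fold change of 0.55 ± 0.09 (adjusted p = 0.0492). *Actn1*, the nonmuscle alpha-actinin (chr12:80214321-80307145), was at 0.65 ± 0.11 (adjusted p = 0.0492) and *Galnt15*, a glycosyltransferase of mucin-type sugars (chr14:31750946-31784154), at 0.51 ± 0.08 (adjusted p = 0.0345). Amylase (*Amy1*, chr3:113349359-113400348) was at 0.83 ± 0.12 (adjusted p = 0.0180), and since amylase genes are near-identical copies, which of them was transcribed is uncertain. *Rps27rt* (chr9:114811434-114811807), a retrotransposed copy of the ribosomal protein gene *Rps27*, was at 0.80 ± 0.09 (adjusted p = 0.00457), while *Rps27* itself was at -0.66 ± 0.15 (adjusted p = 0.133), and how reads were split within this near-identical pair is uncertain. Lower in KPC mice were *Myadm* (chr7:3337605-3348958), a membrane protein first described in myeloid cells, at -0.54 ± 0.09 (adjusted p = 0.0345), and *Itpkb* (chr1:180158050-180252367), a kinase of inositol trisphosphate, at -0.42 ± 0.07 (adjusted p = 0.0345). *Actn1* was called without FoxP1SkmKO KPC replicate 1 (0.0264) and lost without each of the other 7 libraries (0.0617 to 0.211), and *Galnt15* was called without FoxP1SkmKO KPC replicate 2 (0.0290) and lost without each of the other 7 (0.0508 to 0.181). *Plvap* was called without FoxP1SkmKO control replicate 2 or FoxP1SkmKO KPC replicate 1 and lost without each of the other 6 (0.0763 to 0.211). *Itpkb* was called without either FoxP1SkmKO KPC library and lost without each of the other 6 (0.0690 to 0.115). *Myadm* was called without those or WT KPC replicate 1 and lost without each of the other 5 (0.0623 to 0.102), and *Amy1* was lost without FoxP1SkmKO control replicate 1 (0.0868) in a range of 0.00343 to 0.0868.

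Whether these effects belonged to midnight was asked in a fit of all 48 libraries, as the KPC effect at CT18 minus the mean of that effect at the other 5 times. Of 15637 genes tested, 2 were called (0.0128%), *Myh7* and the pseudogene *Csnk2a1-ps3*, and 879 had an unadjusted p under 0.05. For *Myh7* the difference was -3.93 ± 0.69 (SE, log2, adjusted p = 0.0333). Its level in FPKM, the deposited measure per length of gene and size of library, was 1.20 to 3.40 in the 4 CT18 controls and 0.246 to 1.72 in the 20 controls of other times (median 0.350), of which 1 reached 1.20. In KPC mice it was 0.357 to 0.369 FPKM at CT18 and 0.237 to 4.76 FPKM at the other times (median 0.498), with single mice at 3.58 to 4.76 FPKM at CT30 and CT34. The mean KPC effect on *Myh7* at the other times was 1.33 ± 0.30 (SE), of the opposite sign. The call for *Myh7* was kept without FoxP1SkmKO control replicate 1 and lost without each of the other 7 CT18 libraries (adjusted p 0.0514 to 0.327). *Csnk2a1-ps3*, a processed pseudogene of casein kinase 2 at chr1:156351582-156354214 whose reads can come from its parent gene, differed by -0.77 ± 0.14 (adjusted p = 0.0333), with the call kept without WT KPC replicate 2 or FoxP1SkmKO KPC replicate 2 and lost without each of the other 6 (adjusted p 0.0657 to 0.332). By edgeR the count was 0 without WT control replicate 1, WT control replicate 2, WT KPC replicate 1, or FoxP1SkmKO control replicate 2, with 752 to 909 genes at an unadjusted p under 0.05. It was 1 without WT KPC replicate 2 or FoxP1SkmKO KPC replicate 2, and 8 without FoxP1SkmKO KPC replicate 1. DESeq2, run on all libraries, called 4.

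For the receptor genes the effect at CT18 was not called different from that at the other times. Between those times it varied, for *Csf2rb2* from 0.33 at CT26 to 2.02 at CT38 and for *Csf2rb* from 0.45 at CT26 to 2.12 at CT38 (log2). The mean log2 effect over the other 5 times was 1.07 ± 0.13 for *Csf2rb2*, 1.0 ± 0.14 for *Csf2rb*, 0.58 ± 0.09 for *Osmr*, 0.57 ± 0.08 for *Il4ra*, and 0.57 ± 0.07 for *Jak3* (SE). Those of *Meg3* and *Rian* were -0.38 ± 0.07 and -0.52 ± 0.09. All 7 had the sign seen at CT18, whereas that of *Atp2a2* was 0.21 ± 0.08, against -0.71 at CT18 (difference -0.92 ± 0.19, adjusted p = 0.194). *Atp2a2* measured 7.73 to 9.33 FPKM in CT18 controls against 3.64 to 7.84 FPKM in the 20 other controls, of which 1 reached the lowest CT18 control. The basement membrane gene *Nid1* and the fibroblast receptor gene *Pdgfra* were likewise lower in most controls of other times. *Nid1* measured 8.43 to 9.33 FPKM in CT18 controls and 4.43 to 8.41 FPKM in the other 20, and *Pdgfra* 1.4 to 1.5 against 0.387 to 1.41 FPKM. The collagen gene *Col3a1* was not, at 9.64 to 12.0 FPKM in CT18 controls and 4.28 to 21.7 FPKM in the other 20. In the 48-library fit, 9 genes were called over both genotypes at CT18, and 3 of the 16 remained, *Meg3*, *Rian*, and *Jak3*.

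**Figure D2:**
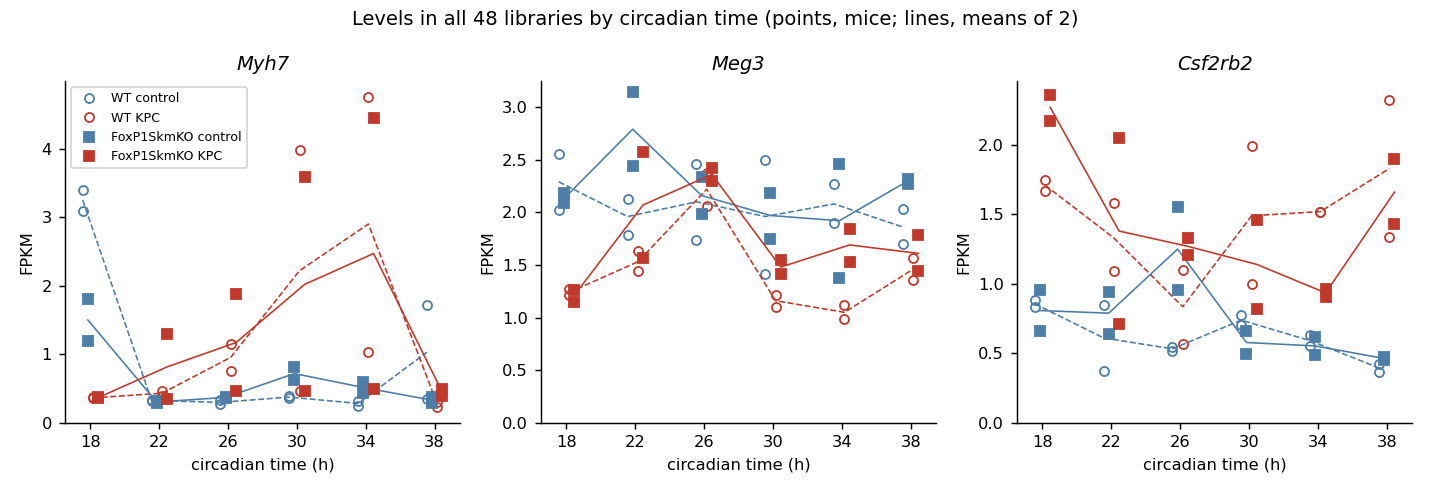
FPKM of *Myh7*, *Meg3*, and *Csf2rb2* in all 48 libraries against circadian time in hours, with points for mice, lines for means of 2 mice, open circles and dashed lines for WT, filled squares and solid lines for FoxP1SkmKO, blue for control and red for KPC mice. *Myh7* in control mice is highest at CT18 (1.20 to 3.40 FPKM), and *Csf2rb2* at CT18 is at 1.67 to 2.36 FPKM in KPC and 0.659 to 0.958 FPKM in control mice.

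In WT mice alone, 2 against 2, 3 genes were called (0.0204%), *Myh7* and *Meg3*, both lower, and *Nr1d1*, higher. *Nr1d1*, the clock repressor REV-ERBα (chr11:98658758-98666159), measured 30.9 and 32.9 CPM in WT control, 63.1 and 55.0 CPM in WT KPC, 41.4 and 34.9 CPM in FoxP1SkmKO control, and 47.5 and 41.3 CPM in FoxP1SkmKO KPC mice. Only the WT pairs were well separated, with a log2 fold change of 0.89 ± 0.12 (SE, adjusted p = 0.0336) against 0.22 ± 0.12 in FoxP1SkmKO mice (adjusted p = 0.503). The difference between the genotypes was not called (adjusted p = 0.255). The study named *Nr1d1*, *Per1*, and *Bhlhe40* on these samples, so this list is not independent evidence. The *Nr1d1* call was lost without any 1 of the 4 WT libraries (adjusted p 0.106 to 0.332). That of *Meg3* in WT mice was lost without WT control replicate 2 (0.252), WT KPC replicate 1 (0.346), or WT KPC replicate 2 (0.334), in a range of 0.0130 to 0.346, and that of *Myh7* was kept in all 4 omissions. The WT count was 1 without WT control replicate 2 and 2 or 3 without the others.

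In FoxP1SkmKO mice alone, 101 genes were called (0.688%), 22 higher (0.15%) and 79 lower (0.538%). Of the 16 genes called over both genotypes, 12 were among them. Among those lower were 8 collagen chains, 7 matrix proteoglycans and matricellular genes, and 3 slow-fiber genes, *Myh7*, *Atp2a2*, and *Myl2* (log2 fold change -2.41, adjusted p = 0.0486). *Chrna1*, the alpha subunit of the muscle acetylcholine receptor, measured 19.4 and 36.7 CPM in FoxP1SkmKO control and 11.5 and 11.2 CPM in FoxP1SkmKO KPC mice, against 9.94 to 12.5 CPM in the 4 WT libraries. It fell by 1.31 on the log2 scale (adjusted p = 0.0232), with the FoxP1SkmKO controls above all other libraries. *Ankrd1*, a stretch-responsive sarcomere gene, was likewise highest in the FoxP1SkmKO controls, at 9.44 and 14.5 CPM against 4.03 to 6.52 CPM in the other 6 libraries, and fell by 1.34 (adjusted p = 0.0368). *Igfbp6*, an IGF-binding protein, fell by 0.79 (adjusted p = 0.0368).

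Among the 22 genes that rose in FoxP1SkmKO mice was *Glul*, glutamine synthetase, at 226 and 209 CPM in control and 294 and 332 CPM in KPC mice (log2 fold change 0.53, adjusted p = 0.0225), with 196 to 218 CPM in WT mice. *Gadd45g*, a stress-induced gene, measured 17.3 and 19.7 CPM in control and 33.2 and 59.8 CPM in KPC mice (1.34, adjusted p = 0.0372), and *mt-Co3*, a mitochondrially encoded subunit of cytochrome oxidase, rose by 0.94 (adjusted p = 0.0429). By edgeR the difference between the genotypes was called for none of *Chrna1*, *Ankrd1*, *Igfbp6*, *Glul*, *Gadd45g*, and *mt-Co3* (adjusted p 0.127 to 0.515, with all 6 at an unadjusted p under 0.05), while DESeq2 called it for *Glul*.

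*Chrna1*, *Ankrd1*, *Igfbp6*, *Glul*, *Gadd45g*, *mt-Co3*, and *Myl2* all lost the call in FoxP1SkmKO mice without FoxP1SkmKO control replicate 2 (adjusted p 0.188 to 0.365) and without FoxP1SkmKO KPC replicate 2 (0.0912 to 0.257). *Gadd45g* (0.146), *mt-Co3* (0.0814), and *Myl2* (0.0651) also lost it without FoxP1SkmKO control replicate 1, and *Igfbp6* (0.0699) and *Myl2* (0.102) without FoxP1SkmKO KPC replicate 1. The log2 fold change over these omissions ranged from 0.51 to 1.26 for *mt-Co3*, from 0.84 to 1.69 for *Gadd45g*, and from -1.69 to -0.77 for *Chrna1*. Over FoxP1SkmKO mice the count was 26 without FoxP1SkmKO control replicate 2 (10 higher, 16 lower), 200 without FoxP1SkmKO KPC replicate 1 (125 higher, 75 lower), and 67 without FoxP1SkmKO KPC replicate 2 (9 higher, 58 lower). Without FoxP1SkmKO control replicate 1 it was 113, with 14 higher. Of the 101 genes, 17 were called in all 4 omissions. DESeq2 called 158, and the fit of all 48 libraries 3.

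The difference of the KPC effect between the genotypes was called for 14 genes (0.0953%), all with a lower value in FoxP1SkmKO mice (0.0953%), and 1295 had an unadjusted p under 0.05. They encode fibrillar and filament collagens (*Col1a2*, *Col3a1*, *Col6a1*, *Col6a2*), matrix proteoglycans and basement membrane proteins (*Lum*, *Dcn*, *Nid1*), matrix proteases (*Mmp2*, *Adamts5*), the fibroblast receptor *Pdgfra*, the macrophage mannose receptor *Mrc1*, and *Itih5*, *Fstl1*, and *Gask1b*. In all 14 the 2 FoxP1SkmKO KPC libraries were the lowest of the 8. Without FoxP1SkmKO KPC replicate 2, 33 genes were called, 13 of the 14 among them, with *Fstl1* lost (adjusted p = 0.0705, in a range of 0.0415 to 0.204 over its 8 omissions). Without FoxP1SkmKO control replicate 2, the library with high interferon-induced genes, edgeR called 0, with 892 genes at an unadjusted p under 0.05, and no run of DESeq2 left out that library. The count was 6, 1, 3, and 4 without WT control replicate 1, WT control replicate 2, WT KPC replicate 1, and WT KPC replicate 2, and 67 without FoxP1SkmKO control replicate 1. With all libraries DESeq2 called 49, and the edgeR fit of all 48 libraries called 0, with 1633 genes at an unadjusted p under 0.05.

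*Lum*, the collagen-binding proteoglycan lumican (chr10:97400990-97408565), measured 15.5 and 19.4 CPM in WT control, 20.3 and 17.4 CPM in WT KPC, 17.3 and 21.1 CPM in FoxP1SkmKO control, and 4.63 and 5.94 CPM in FoxP1SkmKO KPC mice. The first 3 groups overlapped, and the fourth stood apart below them. The log2 fold change was 0.11 ± 0.16 in WT and -1.84 ± 0.18 in FoxP1SkmKO mice (adjusted p = 2.93e-04), a difference of -1.95 ± 0.24 (SE, adjusted p = 0.0125). *Pdgfra*, the growth factor receptor that marks fibro-adipogenic progenitors (chr5:75312953-75358876), measured 14.9 and 14.8 CPM in WT control, 19.8 and 17.1 CPM in WT KPC, 14.0 and 15.1 CPM in FoxP1SkmKO control, and 6.54 and 5.99 CPM in FoxP1SkmKO KPC mice. Both WT KPC values were above the controls and both FoxP1SkmKO KPC values below them, a difference of -1.53 ± 0.20 (adjusted p = 0.0125). These values are of CT18 only, and the difference between the genotypes was not tested at other times. From CT22 to CT38, mean *Lum* in WT mice was 5.32, 3.2, 2.61, 1.65, and 2.76 FPKM with KPC. In WT controls it was 5.28, 4.4, 4.21, 3.54, and 4.58 FPKM. From CT26 on the WT KPC means were thus lower too, and the effect in WT mice alone at these times was not tested.

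*Col3a1* and *Col1a2*, chains of the fibrillar collagens III and I, lie at chr1:45350698-45388866 and chr6:4504814-4541544. *Col3a1* measured 117 and 98.2 CPM in WT control, 86.0 and 144 CPM in WT KPC, 94.7 and 112 CPM in FoxP1SkmKO control, and 27.8 and 35.2 CPM in FoxP1SkmKO KPC mice. The WT KPC mice spread on both sides of the controls. The differences between the genotypes were -1.80 ± 0.28 for *Col3a1* (adjusted p = 0.0292) and -1.51 ± 0.21 for *Col1a2* (adjusted p = 0.0211). Over both genotypes, the mean KPC effect at the other 5 times was -0.69 ± 0.13 for *Col3a1* and -0.72 ± 0.14 for *Col1a2* (SE). *Itih5*, a protein that binds hyaluronan in the matrix (chr2:10158382-10261340), measured 18.3 to 21.3 CPM in the other 6 libraries and 7.71 and 7.21 CPM in FoxP1SkmKO KPC mice (difference -1.46 ± 0.19, adjusted p = 0.0125). All 5 lost the call without FoxP1SkmKO control replicate 2 (adjusted p 0.118 to 0.204). *Lum* also lost it without WT KPC replicate 1 (0.0621), *Pdgfra* without WT control replicate 2 (0.0794) or WT KPC replicate 1 (0.0639), and *Itih5* without WT control replicate 2 (0.0601) or WT KPC replicate 1 (0.0633). *Col1a2* lost it without WT control replicate 2 (0.0897) or WT KPC replicate 2 (0.0886), and *Col3a1* without those (0.0998 and 0.0886) or WT control replicate 1 (0.0722). The lowest adjusted p over the omissions was 0.00438 to 0.00958 for these genes.

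**Figure D3:**
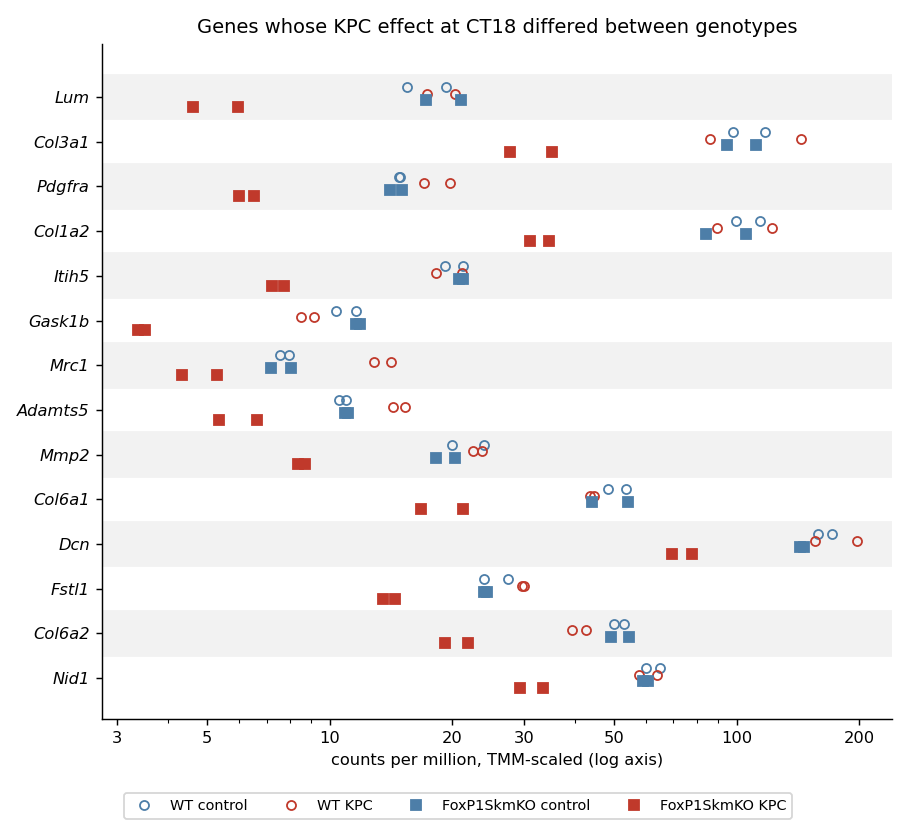
CPM (TMM-scaled, log axis) in the 8 CT18 libraries of the 14 genes whose KPC effect differed between genotypes, 1 point per mouse, with open circles for WT, filled squares for FoxP1SkmKO, blue for control and red for KPC mice. In every row the filled red squares are the lowest points, for *Lum* at 4.63 and 5.94 CPM against 15.5 to 21.1 CPM in the other 6 libraries.

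Of 44 collagen chains, 35 were tested. Over both genotypes edgeR called 0, 17 had an unadjusted p under 0.05, all lower, against 3.88% of all genes, and DESeq2 called 2 (*Col15a1*, *Col6a2*). The alphabetically first, *Col11a1* and *Col11a2*, had log2 fold changes of -0.97 and 0.21, and the median was -0.32. In FoxP1SkmKO mice 8 fell (*Col1a1*, *Col1a2*, *Col3a1*, *Col5a2*, *Col6a1*, *Col6a2*, *Col6a3*, *Col15a1*), against 0.538% of all genes. The median there was -0.78 over the list against -0.00582 over all genes. In WT mice edgeR and DESeq2 called 0, and the median was -0.09. There 5 had an unadjusted p under 0.05, 4 of them lower, against 794 of all 14689 genes in either direction. The 44 chains summed to 821.0 to 1015 CPM in controls, 831.2 and 957.9 CPM in WT KPC, and 469.1 and 572.1 CPM in FoxP1SkmKO KPC mice. Of 17 matrix proteoglycans and matricellular genes, 7 fell in FoxP1SkmKO mice (*Lum*, *Dcn*, *Bgn*, *Prelp*, *Sparc*, *Fbn1*, *Tnxb*), against 0.538% of all genes, with a median of -0.74. Over both genotypes edgeR called 0 and DESeq2 called *Sparc*, and 8 had an unadjusted p under 0.05, all lower, against 3.88% of all genes. *Dcn* and *Lum*, first on that list, were at -0.43 and -0.77 over both genotypes.

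Lists made after values were seen, of fibroblast and of basement membrane genes, had 10 of 19 and 6 of 14 members called lower in FoxP1SkmKO mice. Of all genes 0.538% were called lower there, but lists drawn up with the values known cannot be tested against that share. The fibroblast list summed to 977.6 to 1200 CPM in controls, 1186 and 1237 CPM in WT KPC, and 481.0 and 604.8 CPM in FoxP1SkmKO KPC mice. Whether fibroblasts were fewer or made less of these RNAs cannot be told apart. Macrophage genes moved with the same contrast. Of 22, 20 were tested. All 20 had a log2 fold change above 0 in WT mice (median 1.10) and 6 in FoxP1SkmKO mice (median -0.48). For the difference 15 had an unadjusted p under 0.05, all lower in FoxP1SkmKO mice, against 1295 of all 14689 genes in either direction. For it edgeR called *Mrc1*, and DESeq2 called *Mrc1*, *Csf1r*, and *F13a1*. *Adgre1* and *Csf1r*, which define macrophages, were at 0.20 and 0.14 over both genotypes. Over both genotypes edgeR called 0 of the 20, 4 had an unadjusted p under 0.05, and DESeq2 called *Ccl6*, higher. The list summed to 63.5 to 115.9 CPM in controls, 137.9 and 169.7 CPM in WT KPC, and 64.9 and 70.0 CPM in FoxP1SkmKO KPC mice, and the part of macrophages in the matrix result was not tested.

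*Mrc1* measured 7.55 and 7.96 CPM in WT control, 14.1 and 12.8 CPM in WT KPC, 7.20 and 8.03 CPM in FoxP1SkmKO control, and 4.33 and 5.30 CPM in FoxP1SkmKO KPC mice. The WT KPC mice were highest and the FoxP1SkmKO KPC mice lowest, a difference of -1.44 (adjusted p = 0.0392), although neither single genotype was called (adjusted p = 0.283 and 0.136). This call was kept without FoxP1SkmKO control replicate 1 or FoxP1SkmKO KPC replicate 2 and lost without each of the other 6 libraries (0.0567 to 0.251). The study named *F13a1* and *C3*, partly on these samples, among genes higher in WT KPC than in WT control mice at CT18 and CT22. The values here are of another contrast, the difference between the genotypes at CT18. For *F13a1*, a macrophage transglutaminase, it was -1.66 (adjusted p = 0.0509 by edgeR, called by DESeq2 for the difference and in WT mice). For *C3*, the central complement component, it was -0.41 (adjusted p = 0.844), which does not test the rise in WT mice.

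**Figure D4:**
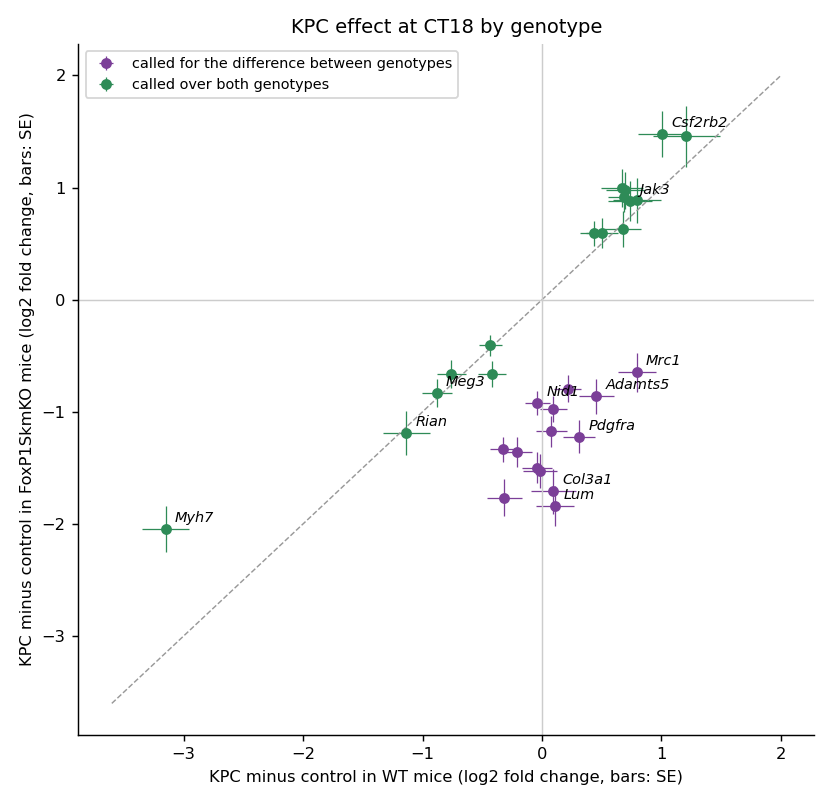
Log2 fold change of KPC against control at CT18 in FoxP1SkmKO mice (vertical axis) against that in WT mice (horizontal axis), with bars for the standard error, green points for the 16 genes called over both genotypes and purple points for the 14 called for the difference between genotypes. The green points have the same sign on both axes, with *Myh7* at -3.15 in WT and -2.04 in FoxP1SkmKO mice, and the purple points lie below the diagonal of equal effects, *Lum* at 0.11 in WT and -1.84 in FoxP1SkmKO mice.

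Other immune lists gave few calls over both genotypes. Of 16 neutrophil genes, 4 passed the filter on low counts. *S100a9* passed it through the KPC libraries, so no count of calls over these 4 is given. The list summed to 2.33 to 3.58 CPM in controls and 6.02 to 12.9 CPM in KPC mice, and *S100a8*, *Ngp*, *Camp*, and *Ltf* were too low to be tested. *S100a9*, an abundant protein of neutrophil granules and cytosol, was at 0.059 to 0.189 CPM in controls and 0.426 to 1.52 CPM in KPC mice. Of 31 interferon-induced genes, edgeR and DESeq2 called 0, 1 had an unadjusted p under 0.05, and *Irf1* and *Irf7* were at -0.02 and 0.47. The median was 0.02 over both genotypes, 0.52 in WT mice, where all 31 were above 0, and -0.23 in FoxP1SkmKO mice, whose control replicate 2 had the high sum given above. For 16 complement components the median was 0.25, edgeR and DESeq2 called 0, and 2 had an unadjusted p under 0.05, with *C1qa* and *C1qb* at 0.01 and 0.33. Their median was 0.63 in WT mice, with 9 higher at that p, and -0.16 in FoxP1SkmKO mice. For the difference between genotypes it was -0.73, with 8 lower at that p and 0 called by edgeR and by DESeq2. Of all 14689 genes, 794 were at that p in WT mice and 1295 for the difference, in either direction. For 7 acute-phase genes made outside liver too, the median was 0.40, edgeR and DESeq2 called 0, and 4 had an unadjusted p under 0.05, all higher, with *Lcn2* at 1.57 and *Hp* at 2.09, the latter 0.58 without FoxP1SkmKO KPC replicate 2. Of 16 genes for C/EBP and NF-kB factors, edgeR called 0, 4 had an unadjusted p under 0.05, and DESeq2 called *Cebpd*, with *Cebpa* and *Cebpb* at 0.27 and 0.14 and a median of 0.03.

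Among the wasting and stress lists, edgeR called 0 members over both genotypes. Of all genes, 3.83% were higher and 3.88% lower at an unadjusted p under 0.05, and DESeq2 called 0.286% in each direction. The atrophy ubiquitin ligases *Fbxo32* and *Trim63* were at 0.44 ± 0.09 (adjusted p = 0.117) and 0.16, and *Fbxo32* measured 161 to 218 CPM in controls and 197 to 284 CPM in KPC mice, with an overlap. Of the 13 ligases 3 had an unadjusted p under 0.05, all higher, DESeq2 called *Fbxo32*, and the median was 0.10. Of 20 autophagy genes 5 had an unadjusted p under 0.05, all higher, DESeq2 called 0, and *Map1lc3a* and *Map1lc3b* were at 0.30 and 0.20 (median 0.08). Of 10 cathepsins 1 did, DESeq2 called 0, and *Ctsl* and *Ctsb* were at 0.03 and 0.13 (median 0.10). Of 19 tested glucocorticoid-responsive genes 7 did, all higher, and DESeq2 called *Cebpd*, *Arrdc2*, *Map3k6*, and *Per1*. Of the 19, 14 were above 0 (median 0.20), and the classical targets *Fkbp5* and *Tsc22d3* were at -0.07 and -0.08. *Arrdc2* measured 14.2 to 37.5 CPM in controls and 36.0 to 109 CPM in KPC mice (log2 fold change 1.26 ± 0.23, adjusted p = 0.0640).

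For 50 proteasome genes the median was 0.01, 1 was higher and 1 lower at an unadjusted p under 0.05, and DESeq2 called 0, with *Psma1* and *Psma2* at -0.14 and -0.02. For 27 heat shock proteins the median was -0.09, 5 were lower at an unadjusted p under 0.05, and DESeq2 called *Hspa8*, with *Hspa1a* and *Hspa1b* at -0.59 and -0.25. The 15 hypoxia genes had a median of 0.07, with 1 at an unadjusted p under 0.05. The 11 tested genes of the integrated stress response had a median of 0.00315, with 0 at that p. For the 19 tested immediate early genes the median was -0.05, with 1 at that p. For the 8 tested metallothioneins and zinc transporters it was -0.02, with 0 at that p. These lists had 0 calls by edgeR and by DESeq2 over both genotypes. Their first 2 tested members were *Egln3* and *Egln1* at 0.30 and 0.05, *Atf4* and *Atf5* at 0.08 and 0.08, *Fos* and *Fosb* at -0.12 and -0.01, and *Mt1* and *Mt3* at 0.33 and -0.88.

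Growth, fuel, and mitochondrial lists had medians of 0.01 to 0.14 and 0 calls by edgeR over both genotypes, and DESeq2 called 1 of their members, *Rps27*. Members at an unadjusted p under 0.05 numbered 0 of 12 for the myostatin and activin pathway (*Mstn* -0.03, *Fst* 0.12, median 0.01), 5 of 22 for insulin, IGF1, and mTOR (*Igf1* -0.20, *Igf2* 0.13, median 0.04), and 1 of 11 for polyamine metabolism (*Odc1* -0.06, *Amd1* 0.11, median 0.11). They numbered 2 of 19 for glycolysis (*Slc2a1* 0.10, *Slc2a4* 0.02, median 0.02), 3 of 13 for glycogen (*Gys1* 0.07, *Gyg* 0.14, median 0.07), and 4 of 27 for fatty acid oxidation, where *Pdk4*, which closes pyruvate dehydrogenase, was at 0.81 ± 0.16 (adjusted p = 0.0906) and *Cpt1a* at 0.27 (median 0.14). For the citric acid cycle it was 0 of 22 (*Cs* -0.04, median 0.02), for nuclear genes of oxidative phosphorylation 0 of 85 (*Atp5a1* 0.01, *Atp5b* 0.03, median 0.03), and for mitochondrially encoded genes 2 of 13 (*mt-Atp6* 0.52, *mt-Atp8* -0.30, median 0.01). For mitochondrial ribosomal proteins it was 4 of 77 (*Mrpl1* -0.15, *Mrpl10* -0.05, median 0.01). Of the cytosolic ribosomal proteins 18 of 85 were at that p, 17 of them higher, against 3.83% of all genes, with a median of 0.13 (*Rack1* 0.15, *Rpl10* 0.04). The fatty acid oxidation list had a median of -0.00941 in WT mice and 0.26 in FoxP1SkmKO mice, where 23 of 27 were above 0, 10 were higher at an unadjusted p under 0.05, edgeR called 0, and DESeq2 called *Pnpla2* and *Mlycd*. For the difference between genotypes 6 of the 27 were higher and 1 lower at that p, and edgeR and DESeq2 called 0. Nuclear genes of oxidative phosphorylation had a median of -0.06 in WT mice, where 18 of 85 were above 0. In FoxP1SkmKO mice it was 0.16, with 76 above 0 and 20 higher at that p, and for the difference 16 were higher. Mitochondrial ribosomal proteins had medians of -0.09 in WT mice (15 of 77 above 0) and 0.09 in FoxP1SkmKO mice (58 above 0), and 9 were higher for the difference. Of these 2 lists edgeR and DESeq2 called 0. Of all 14689 genes, 1773 were at that p in FoxP1SkmKO mice and 1295 for the difference, in either direction.

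Of the lists for muscle identity and nerve, developmental and stress-induced sarcomere genes had a median of -0.36, with *Myh3* and *Myh8* at -0.38 and -0.04, and 4 of 12 lower at an unadjusted p under 0.05. Myogenic regulators had a median of -0.08 (*Myod1* -0.07, *Myog* -0.13, 3 of 12 at that p, all lower), and 13 tested acetylcholine receptor and denervation genes a median of -0.20 (*Chrna1* -0.67, *Chrnb1* -0.19, 2 higher and 1 lower at that p). The 11 skeletal muscle markers had a median of 0.07 (*Acta1* -0.02, *Ckm* 0.15, 4 at that p, all higher). Over both genotypes edgeR and DESeq2 called 0 in these 4 lists, while *Chrna1* and *Ankrd1* were called in FoxP1SkmKO mice, as given above. Of 8 Schwann cell genes, a list made after values were seen, edgeR called 0, 3 were lower at that p, and DESeq2 called the myelin gene *Mbp* (*Mbp* -0.57, median -0.45).

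Clock genes were not called over both genotypes by edgeR. The activators *Arntl* (BMAL1) and *Clock* were at 0.03 and -0.03, and the repressors *Per1* and *Per2* at 0.77 ± 0.15 (adjusted p = 0.0815) and 0.23. *Per1* measured 15.3 to 38.6 CPM in controls and 30.9 to 57.2 CPM in KPC mice, with an overlap. Of 10 repressors 2 had an unadjusted p under 0.05, *Per1* and *Nr1d1*, and DESeq2 called both, and 9 of 10 were above 0 (median 0.14). The 3 activators (median 0.03) and the 6 tested ROR receptors and PAR bZIP outputs (*Rora* 0.14, median 0.00612) had 0 at that p and 0 by DESeq2. Of the 10 FoxP, FoxO, and FoxK factors (*Foxp1* -0.04, *Foxp2* 0.14, median 0.05), *Foxo6* had an unadjusted p under 0.05 and was called by DESeq2, lower.

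For endothelial genes edgeR called 0 of 14, 3 were higher and 1 lower at an unadjusted p under 0.05, and DESeq2 called *Ly6a* and *Kdr* (*Pecam1* 0.10, *Cdh5* -0.15, median -0.000993). Adipocyte genes (*Adipoq* 0.08, *Plin1* -0.49, median 0.08) had 1 of 11 at that p, erythroid genes (*Hba-a1* 0.20, *Hba-a2* -0.04, median 0.20) 0 of 5, and the 1 tested gene of pancreatic epithelium and tumor cells (*Sox9* -0.16) 0, with 0 called by edgeR and by DESeq2 in the 3 lists. *Krt19* and *Krt8*, first on the tumor cell list, were too low to be tested, and that list summed to 4.66 to 6.54 CPM in controls and 4.55 to 7.26 CPM in KPC mice.

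Liver transcripts were set apart, as they were by far highest in 1 library, but they were not confined to it. The list summed to 72.1 CPM in WT KPC replicate 2 and 40.0 CPM in FoxP1SkmKO control replicate 2. The remaining controls, WT KPC replicate 1, and FoxP1SkmKO KPC replicate 1 had 22.5 to 28.7 CPM. In FoxP1SkmKO KPC replicate 2, 106 genes were above 1 CPM and above 10 times the highest other CT18 library, 55 of them on the liver list, and none of the 106 is among the 16 called genes. The liver list held 0.109% of the counts of that library, at most 0.00732% of those of the other 7 CT18 libraries, and at most 0.0328% in the other 47 libraries of the series. Albumin (*Alb*) was at 239 CPM there and at 10.7 CPM or less elsewhere, *Hpx* (hemopexin) at 67.4 against 2.27 CPM, *Fga* (fibrinogen) at 54.5 against 2.37 CPM, and *Apoa1* at 40.5 against 1.99 CPM. *Fgb*, *Fgg*, and *Itih4* followed at 40.4, 35.6, and 35.1 CPM. Vitronectin (*Vtn*) was at 34.4 CPM against 12.6 to 20.4 CPM in the other libraries. Of the liver genes 29 passed the filter on low counts, to which that library contributed, and no test of the list is given. None of the 16 genes called over both genotypes is on the liver list, and with the liver genes removed 23 genes were called, the 16 among them.

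**Figure D5:**
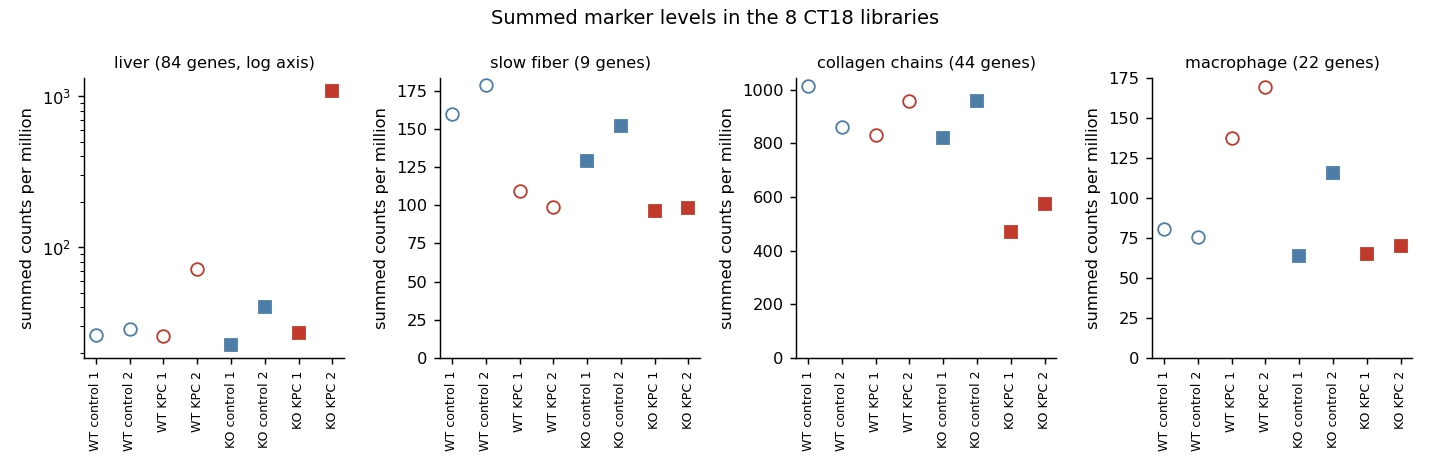
Summed CPM of the liver list (log axis), the slow-fiber genes, the collagen chains, and the macrophage genes in each of the 8 CT18 libraries, with open circles for WT, filled squares for FoxP1SkmKO (KO), blue for control and red for KPC mice. The liver sum is 1080 CPM in FoxP1SkmKO KPC replicate 2 alone, slow-fiber sums are lower in all 4 KPC mice, and collagen sums are low in the 2 FoxP1SkmKO KPC mice.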

How the data were processed

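RNA sequencing libraries of tibialis anterior muscle were used, 8 from CT18 and all 48 for the comparison over time. The authors aligned reads to mm39 and counted them on genes, with HISAT2 2.0.5 and DESeq2 1.20.0 named in the submitters' processing notes and another aligner named in the methods, and whether counting used strand is not given in the sources used here. The deposited counts are raw counts per gene, and FPKM, which the authors derived from counts, gene lengths, and library sizes, was deposited beside them. The tables also hold size-factor-normalized counts and the authors' own fold changes and p-values, which were not used, and 0 columns belong to samples outside the series. Genes that a table leaves out were given 0 reads or the read their FPKM implies.

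Counts were analyzed with edgeR 4.0.16 in R 4.3.3 (filterByExpr with the groups, TMM, glmQLFit and glmQLFTest), with Benjamini-Hochberg adjustment over all genes tested. The fit over both genotypes had genotype as covariate, and single genotypes and their difference were contrasts of 4 group coefficients in 1 fit of the 8 libraries. The steps were tested on simulated data. Counts per library of 14480867 to 20787784 set the precision, and mice, not reads, were the replicates.

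Alternatives were RLE size factors, DESeq2 1.42.0, no filter on low counts, the replicate number as a block, removal of the liver list, all 48 libraries in 1 fit, and each library left out. Same-numbered mice deviated together weakly or not at all. The correlations of replicate differences between pairs of groups were -0.0671 to 0.191, highest between WT KPC and FoxP1SkmKO KPC mice. The numbers were not used to pair mice in the main fits, and whether same-numbered mice shared a batch is not known.

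The named genes were *Foxp1*, the first 2 tested members of each of 45 lists and up to 8 called members of each, up to 12 genes in each direction among those called over both genotypes without overlap, up to 5 in each direction for the difference between genotypes and for CT18 against other times, and the 8 highest liver genes. A few genes that this rule or a count would name are not reported here. Genes outside this rule, among them the other 9 of the 14 genes that differed between genotypes, *Stat3*, *Socs3*, *Arrdc2*, *Csf2ra*, *Mirg*, *Dlk1*, *Rps27*, *F13a1*, *C3*, and those called by DESeq2, were chosen after their values were seen. The members, the lists, and the rule were chosen with earlier results of these data known, and 5 further lists were added after values were seen.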

Additional observations from a re-analysis of the deposited data

Results flagged for a closer look

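Among 78 groups of 4 libraries checked (39 genes, KPC and control mice separately), 14 had a library whose gap to the nearest of the others exceeded Dixon's 95% limit, a share of the range that chance passes in about 1 of 20 groups. In 7 of the 14 the library was FoxP1SkmKO KPC replicate 2, highest for *Alb* (239 CPM), *Hpx* (67.4 CPM), *Fga* (54.5 CPM), *Apoa1* (40.5 CPM), *Fgb* (40.4 CPM), *Fgg* (35.6 CPM), and *Itih4* (35.1 CPM). These liver genes were checked because they were the highest of the liver list in that same library. Its flags thus followed from the choice of genes, and the chance rate does not apply to them. In 6 it was FoxP1SkmKO control replicate 2, highest of the controls for *Alb* (3.8 CPM), *Hpx* (0.760 CPM), *Fga* (0.705 CPM), *Apoa1* (0.760 CPM), *Fgb* (0.868 CPM), and *Fgg* (0.543 CPM). The remaining one was WT control replicate 2 for *Fstl1*, at 27.5 CPM.

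The KPC effect differed between the genotypes, by the interaction test of edgeR, for 14 genes. The log2 differences, FoxP1SkmKO minus WT, were -1.95 for *Lum*, -1.80 for *Col3a1*, -1.53 for *Pdgfra*, -1.51 for *Col1a2*, -1.46 for *Itih5*, -1.45 for *Gask1b*, -1.44 for *Mrc1*, -1.32 for *Adamts5*, -1.25 for *Mmp2*, -1.15 for *Col6a1*, -1.07 for *Dcn*, -1.01 for *Fstl1*, -1.0 for *Col6a2*, and -0.88 for *Nid1*. In these genes the 2 FoxP1SkmKO KPC mice were the lowest of the 8.

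The KPC effect at CT18 differed from the mean of the other 5 times for *Myh7* (-3.93) and *Csnk2a1-ps3* (-0.77) on the log2 scale, by the contrast over all 48 libraries.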

How the results depend on the processing

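The counts of called genes changed with the setting. No gene called by edgeR in a reported comparison changed sign in that comparison under any setting run. Genes named only for a call by DESeq2 or in a refit were not followed over the settings. Over both genotypes (16, of them 10 higher and 6 lower), DESeq2 called 84 (42 and 42), the fit without a filter on low counts 408 (254 and 154), and that of all 48 libraries 9 (3 higher), and with the liver list removed 10 were lower. In WT mice (3) these numbers were 13 by DESeq2, 170 without a filter, and 0 with all 48 libraries. In FoxP1SkmKO mice (101, of them 22 higher and 79 lower) DESeq2 called 158 (54 higher), the fit without a filter 625 (321 and 304), and that of all 48 libraries 3 (1 and 2). The difference between genotypes (14) gave 49 by DESeq2, 287 without a filter, and 0 with all 48 libraries. CT18 against the other times (2) gave 4 by DESeq2 and 123 without a filter. The replicate number was also used as a block, although it is not known to be a pairing. The counts were then 61 over both genotypes (46 higher, 15 lower), 13 in WT mice, and 52 higher in FoxP1SkmKO mice. The other counts stayed within 1.5 times. Leaving out 1 library gave 6 to 48 over both genotypes (2 to 41 higher, 4 to 11 lower), 1 to 3 in WT mice, 26 to 200 in FoxP1SkmKO mice (9 to 125 higher, 16 to 99 lower), 0 to 67 for the difference, and 0 to 8 for CT18 against the other times. The cause of these changes was not tested. With 2 mice per group, an omission leaves 1 mouse that is assumed to vary like the rest. RLE size factors kept every call named. Genes near 1 CPM, such as *Mirg* and *S100a9*, rest on few reads.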
